A study of Arabidopsis thaliana with 3 samples.

Results

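The genes described here encode the enzymes of plastid isoprenoid synthesis in Arabidopsis thaliana. They are 33 loci chosen by identifier and pathway position, not by their values, out of 27374 genes listed in the files, and all 33 were found. They comprise 7 genes of the methylerythritol phosphate (MEP) pathway, 3 of prenyl diphosphate synthesis, 14 of carotenoid and xanthophyll synthesis, 4 carotenoid cleavage dioxygenases and 5 of tocopherol synthesis. RNA was taken from whole wild-type seedlings of Col-0, the reference accession, at 9 days, on MS medium at 23 °C under a day of 16 h and a night of 8 h. Ribosomal RNA was removed and 3 strand-specific libraries were made, which form 1 group with no mutant and no treatment. No label states that separate cultures were used, so the spread between these libraries may be technical. Every SD measures that spread for the gene or ratio named. The SEs and p-values draw partly or wholly on the spread of other genes between the same libraries.

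Plastids build isoprenoids from isopentenyl diphosphate and its isomer dimethylallyl diphosphate, which the MEP pathway makes from pyruvate and glyceraldehyde phosphate. Geranylgeranyl diphosphate, built from these units, feeds carotenoids and, after reduction, the phytyl tails of chlorophyll and tocopherol. In green seedlings carotenoids sit in the photosynthetic antennae, where they gather light and quench excess energy, and tocopherols protect membrane lipids. Carotenoids are also the precursors of abscisic acid and of strigolactones. The question put to the data was how the transcript levels of the successive steps compare.

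Levels are FPKM, fragment counts scaled to transcript length and sequencing depth, summed over the transcripts of a locus. The scaling is meant to let genes of different length be set side by side. An error particular to a gene and equal in all libraries would stay in its level. No SD, SE or p-value here measures such an error, so a small p-value shows a repeatable difference in FPKM between genes. FPKM over all transcripts added up to 2064650, 2000110 and 1957870 in libraries 1, 2 and 3. The tissue label was checked with 9 marker genes. The leaf genes CAB1 and RBCS1A had 14284 and 6896 FPKM and the root gene PYK10 had 1009, while the root transporters IRT1 and PHT1;1 had 1.96 and 8.28 on average. Markers of flowers, seeds and pollen (AP1, CRA1, CRC and VGD1) had means of at most 0.227 FPKM. In whole seedlings, a low level in all cells and a high level in few cells cannot be told apart.

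Transcripts of this pathway were abundant. At least 1 FPKM was reached in all libraries by 31 of the 33, and by 63.5% of all listed genes. The median over the members was 25.6 FPKM, against 3.92 over nuclear protein-coding genes, and their median percentile rank among those genes was 86.8. That set includes genes listed at 0. Among genes averaging 1 FPKM or more, the medians were 29.0 over 31 members and 9.17 over nuclear protein-coding genes. Of these, 87.1% and 46.9% averaged 10 FPKM or more. A mean of 10 FPKM or more was reached by 27 members (81.8%) and by 31.0% of nuclear protein-coding genes, and a mean of 100 or more by 4 members (12.1%) and by 3.02% of those genes. The 4 were DXS, VTE3, CCD4 and HDS. Both members below 1 FPKM, CCD7 and CCD8, belong to strigolactone synthesis.

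**Figure D1:**
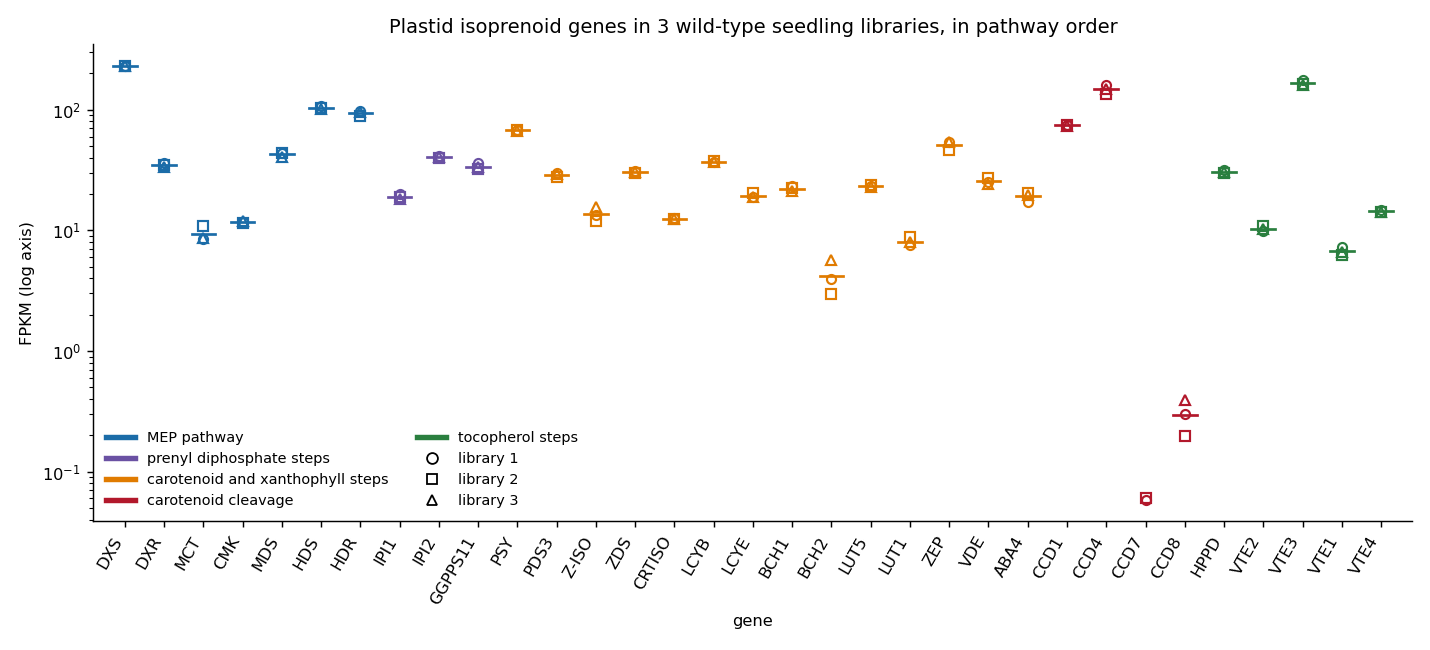
FPKM of the 33 genes on a log axis, in pathway order, coloured by section, with 1 symbol per library and a line at the mean of 3 libraries. DXS, VTE3 and CCD4 stand highest at means of 232, 167 and 148, and CCD8 and CCD7 lie below 0.4; for CCD7, library 3 is listed at 0 and has no symbol, and no mean is drawn.

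In the MEP pathway the levels were high at the entry, low in the middle and high again at the end. DXS (AT4G15560, CLA1 in the gene table; chromosome 4, 8883825 to 8887667, plus strand, 9 exons) makes deoxyxylulose phosphate, the entry reaction and a known control point of flux. It had 231, 232 and 232 FPKM in libraries 1, 2 and 3, the highest level of all 33 genes. DXR (AT5G62790), the next enzyme, had 36.5, 35.0 and 33.4 FPKM, so DXS exceeded it by 6.64 ± 0.307 times (SD, n = 3) within libraries.

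MCT (AT2G02500, ISPD in the table) adds a cytidine nucleotide to the DXR product, and the kinase CMK (AT2G26930, CDPMEK in the table) phosphorylates the result. MCT had 8.54, 10.9 and 8.69 FPKM, the lowest level of the pathway, and CMK had 11.8, 11.4 and 12.0. DXS exceeded MCT by 25.0 ± 3.24 times. The ranges of MCT and CMK did not overlap, although library 2 brought them within 1 FPKM of each other.

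The cyclodiphosphate synthase MDS (AT1G63970, ISPF in the table) had 43.7, 44.1 and 40.8 FPKM. HDS (AT5G60600) and HDR (AT4G34350) are the iron-sulfur enzymes of the last steps, and HDR releases the isoprenoid units. HDS had 108, 104 and 101 FPKM and HDR had 97.1, 89.2 and 96.6. HDS was higher than HDR in each library, by 1.11 ± 0.0616 times, and exceeded MCT by 11.3 ± 1.56 times. DXS made up 43.8% ± 0.625 of the summed FPKM of the 7 genes, HDS 19.7% ± 0.440, HDR 17.8% ± 0.777, and MCT 1.77% ± 0.258.

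The isomerases IPI1 and IPI2 interconvert isopentenyl and dimethylallyl diphosphate, and GGPPS11 condenses them to geranylgeranyl diphosphate. IPI2 (AT3G02780, IPP2 in the table) had 41.7, 39.9 and 40.6 FPKM and IPI1 (AT5G16440, IPP1 in the table) had 19.9, 18.9 and 18.1. Every library of IPI2 lay above every library of IPI1, with a ratio of 2.15 ± 0.0821. GGPPS11 (AT4G36810, GGPS1 in the table), the main form in chloroplasts, lay between them, at 36.1, 32.0 and 33.5 FPKM. In TAIR10.1 the IPI2 gene overlaps AT3G02790 by 712 bases and the GGPPS11 gene overlaps a long noncoding RNA, AT4G36808, by 1529 bases, both on the opposite strand, and whether strand was used in counting is not given in the sources.

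The isomerases are close copies. Their coding sequences were 85.6% identical over 855 aligned bases, and blastn alignments to the other gene of at least 50 bases and 90% identity covered 18.2% of the IPI1 transcript and 24.9% of that of IPI2. The most similar 90 coding bases, bases 529 to 618 of IPI1 (chromosome 5) and 508 to 597 of IPI2 (chromosome 3), differ at 5 places, which are printed in capitals (RefSeq, TAIR10.1). The longest coding run they share without a difference had 42 bases, so a longer coding fragment covers at least 1 difference.
IPI1: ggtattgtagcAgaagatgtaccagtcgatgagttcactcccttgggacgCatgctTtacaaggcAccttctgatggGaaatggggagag
IPI2: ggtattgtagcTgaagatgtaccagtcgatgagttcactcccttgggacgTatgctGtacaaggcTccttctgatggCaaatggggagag

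The steps were compared by the log2 ratio of each gene to a reference gene within each library, on the log2(FPKM + 1) scale, fitted with limma for every gene averaging 1 FPKM or more and adjusted by the Benjamini-Hochberg method over all of them. A gene was called at an adjusted p below 0.05. All 9 other MEP and prenyl genes were lower than DXS, in 3 of 3 libraries each. Of 17867 genes tested, 99.7% differed from DXS and 97.6% were lower, so this count says nothing particular to the pathway, and the sizes are what describes it. The log2 difference from DXS was -1.15 (SE 0.0390) for HDS and -1.29 (SE 0.0415) for HDR, the nearest (limma adjusted p = 1.5e-08 and 1.0e-08). It was -4.50 (SE 0.0705) for MCT and -4.19 (SE 0.0440) for CMK, the farthest (limma adjusted p = 9.0e-11 and 2.9e-11). The other 5 lay between -2.41 (MDS) and -3.54 (IPI1). In the fit against IPI2, from which 98.1% of genes differed and 86.3% were lower, IPI1 had a log2 difference of -1.06 (SE 0.0433, limma adjusted p = 3.3e-08).

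**Figure D2:**
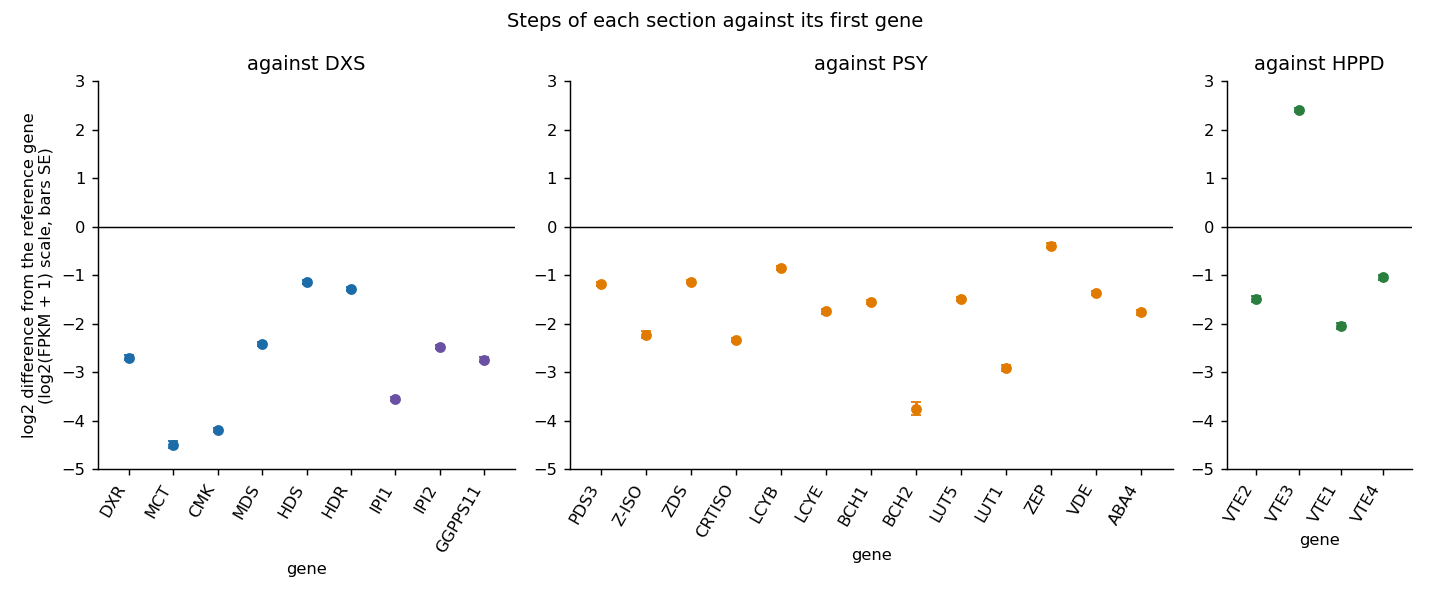
Log2 difference of each gene from the reference gene of its section (DXS, PSY or HPPD) on the log2(FPKM + 1) scale, with bars for the SE from limma over 3 libraries. VTE3 is the only gene shown above its reference, at 2.41, and MCT lies farthest below, at -4.50.

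The mevalonate pathway of the cytosol and peroxisomes makes the same isoprenoid units for sterols, and its highest gene came close to DXS. HMG1, the reductase at a known control point of that pathway, had 219, 216 and 208 FPKM, so the level of DXS was 1.08 ± 0.0312 times its level. The log2 difference of HMG1 from DXS was -0.11 (SE 0.0389, limma adjusted p = 0.0225), lower in 3 of 3 libraries. It was -0.09 without library 3 (limma adjusted p = 0.149), and without a trend in the empirical Bayes step the limma adjusted p was 0.0515, so this call was lost in both settings. All 10 genes of the mevalonate list were called lower than DXS, as were 97.6% of all genes tested. Next came the farnesyl diphosphate synthase FPS1 at 41.7 ± 1.37 FPKM (SD, n = 3), and the decarboxylase gene MVD2 (AT3G54250, no symbol in the table) was lowest at 2.49 ± 0.332. The median of the 10 was 19.3 FPKM, and that of the 7 MEP genes was 42.8.

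Among the DXS-like genes, DXPS3 had 7.14, 7.11 and 7.37 FPKM and differed from DXS by -4.83 on the log2 scale (SE 0.0479, limma adjusted p = 2.9e-11). DXPS1 was listed at 0 in all 3 libraries. Another 5 prenyl synthase genes were set beside GGPPS11, and FPS1 was not among them. Of these 5, only GGR, which encodes the small subunit that pairs with GGPPS11, came near it, at 30.8, 28.5 and 30.5 FPKM. The log2 difference of GGR from GGPPS11 was -0.17 (SE 0.0623, limma adjusted p = 0.0106), lower in 3 of 3 libraries, where 96.8% of genes differed from GGPPS11 and 82.8% were lower. Without library 3 the difference was -0.19 and the call was lost (limma adjusted p = 0.0571). GPS1, at 10.9 ± 1.49 FPKM, was also lower. AT1G49530 (GGPS6 in the table) and AT3G14550 (GGPS3) lay under the filter at 0.995 and 0.880 FPKM, and AT2G23800 (GGPS2) was listed at 0.

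In carotenoid synthesis the entry gene again had the highest level. PSY (AT5G17230; chromosome 5, 5659554 to 5662997, minus strand), phytoene synthase, makes the first carotenoid of the pathway. It had 68.4, 67.5 and 66.5 FPKM, 18.6% ± 0.296 of the summed FPKM of the 14 genes. DXS exceeded it by 3.44 ± 0.0545 times.

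Phytoene is desaturated and isomerised to lycopene by PDS3, Z-ISO, ZDS and CRTISO. The desaturases PDS3 (AT4G14210) and ZDS (AT3G04870) were close, with 29.9, 27.8 and 29.4 FPKM for PDS3 and 30.8, 29.6 and 30.3 for ZDS. Their ranges overlapped, and the ratio of PDS3 to ZDS was 0.960 ± 0.0190, below 1 in each library. The isomerases were lower than both, with 13.4, 12.1 and 15.7 FPKM for Z-ISO (AT1G10830) and 12.7, 12.5 and 12.3 for CRTISO (AT1G06820). The ranges of the isomerases overlapped as well. Means were 29.0 and 30.2 FPKM for the desaturases and 13.7 and 12.5 for the isomerases.

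Lycopene is closed to the beta branch by LCYB alone or, with LCYE, to the branch that ends in lutein. LCYB (AT3G10230, LYC in the table; chromosome 3, 3164075 to 3166038, minus strand, 1 exon) had 36.8, 37.6 and 36.7 FPKM. LCYE (AT5G57030, LUT2 in the table) had 19.0, 20.5 and 18.8, with no overlap. LCYB exceeded LCYE by 1.91 ± 0.0651 times, and the log2 difference of LCYE from LCYB was -0.90 (SE 0.0445, limma adjusted p = 2.0e-07), where 97.5% of genes differed from LCYB and 84.6% were lower.

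The ring hydroxylases turn carotenes into xanthophylls. BCH1 (AT4G25700, BETA-OHASE 1 in the table) had 23.1, 22.4 and 21.2 FPKM, and its paralog BCH2 (AT5G52570, BETA-OHASE 2 in the table) had 3.98, 2.99 and 5.63. BCH1 exceeded BCH2 in every library, by 5.81, 7.49 and 3.76 times. The log2 difference of BCH2 from BCH1 was -2.19 (SE 0.129, limma adjusted p = 8.7e-09), where 95.5% of genes differed from BCH1 and 74% were lower. This log2 ratio had an SD of 0.412 over the 3 libraries, a wider spread than the SE from limma reflects.

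The hydroxylases are also similar to each other, although no blastn alignment of at least 50 bases reached 90% identity over its whole length for either gene elsewhere in the genome. Their coding sequences were 83.7% identical over 887 aligned bases, and the longest run they share without a difference had 33 bases. The most similar 90 coding bases are shown for comparison, from bases 454 to 543 of BCH1 (chromosome 4) and 448 to 537 of BCH2 (chromosome 5), with the 6 differing places in capitals (RefSeq, TAIR10.1).
BCH1: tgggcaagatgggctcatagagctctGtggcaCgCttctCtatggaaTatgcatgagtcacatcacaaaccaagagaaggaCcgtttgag
BCH2: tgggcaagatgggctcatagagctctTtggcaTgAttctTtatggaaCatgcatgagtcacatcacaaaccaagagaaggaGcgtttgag

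Cytochrome P450 enzymes hydroxylate the same rings. LUT5 (AT1G31800, CYP97A3 in the table), which acts mainly on beta rings, had 23.3, 23.9 and 22.8 FPKM, and its range overlapped that of BCH1. LUT5 was higher than BCH1 in 3 of 3 libraries, but the log2 difference of 0.07 (SE 0.0563) missed the threshold (limma adjusted p = 0.272). LUT1 (AT3G53130), the hydroxylase of the epsilon ring, had 7.56, 8.73 and 7.94 FPKM, and LUT5 exceeded it by 2.90 ± 0.174 times. In TAIR10.1 the gene model of LUT1 overlaps 1900 bases of AT3G53140 on the same strand, so its share of the reads there is uncertain.

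In the xanthophyll cycle, ZEP makes violaxanthin and VDE reverses this in strong light. ZEP (AT5G67030, ABA1 in the table) had 54.2, 46.2 and 53.9 FPKM, the next level after PSY in this section. VDE (AT1G08550, NPQ1 in the table) had 25.2, 27.4 and 24.1. ZEP exceeded VDE by 2.15, 1.69 and 2.24 times, with the lowest ZEP and the highest VDE both in library 2. The log2 difference of VDE from ZEP was -0.98 (SE 0.0879), lower in 3 of 3 libraries, where 97.5% of genes differed from ZEP and 88.6% were lower. In the fits against ZEP and CCD4 limma took each variance from the trend over all genes alone, with 35734 degrees of freedom where the fit against DXS had 6.97, so the limma adjusted p of 1.0e-28 overstates what 3 libraries can show. From the variances of both genes it was 2.8e-09, and the highest under any alternative was 5.8e-08. These values also rest on variance borrowed from other genes, and the first treats ZEP and VDE as independent. The log2 ratio itself had an SD of 0.215 over the 3 libraries, so these p-values overstate what 3 libraries can show as well. ABA4 (AT1G67080), needed to form neoxanthin, had 17.4, 20.6 and 19.5 FPKM.

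All 13 other carotenoid genes were lower than PSY in 3 of 3 libraries and were called in the limma fit, from which 98.8% of all genes tested differed and 91.7% were lower. ZEP was nearest, with a log2 difference of -0.39 (SE 0.0536, limma adjusted p = 0.000182), then LCYB at -0.85 (SE 0.0373). BCH2 was farthest at -3.75 (SE 0.131) and LUT1 followed at -2.92 (SE 0.0575). The others lay between -1.13 (ZDS) and -2.34 (CRTISO). In the order of means, 4 pairs of neighbours overlapped, ZDS with PDS3, LUT5 with BCH1, LCYE with ABA4 and Z-ISO with CRTISO.

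The cleavage dioxygenases were split between abundant and nearly undetected genes. CCD4 (AT4G19170, NCED4 in the table; chromosome 4, 10481619 to 10483879, plus strand, 1 exon), which degrades carotenoids in plastids, had 162, 134 and 148 FPKM. CCD1 (AT3G63520), a cytosolic enzyme that cleaves apocarotenoids, had 74.6, 74.7 and 73.1. CCD4 was higher in each library, by 2.17, 1.80 and 2.02 times, and exceeded PSY by 2.19 ± 0.192 times. The log2 difference of CCD1 from CCD4 was -0.98 (SE 0.0927), where 99.1% of genes differed from CCD4 and 96.1% were lower. The limma adjusted p of 3.3e-26 has the same limit as for ZEP. It was 4.6e-09 from the variances of both genes and 6.4e-08 at its highest under the alternatives, and these values borrow variance from other genes too.

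CCD7 (AT2G44990) and CCD8 (AT4G32810) act in turn in strigolactone synthesis, which is known mainly from roots and stems. CCD7 had 0.0585 and 0.0608 FPKM in libraries 1 and 2 and was listed at 0 in library 3. CCD8 had 0.299, 0.198 and 0.395 FPKM. Both lay under the filter and were not tested. From a rough scale of fragments, the CCD7 values stand for about 2.11 and 2.12 fragments in libraries 1 and 2, and those of CCD8 for 11.4, 7.26 and 15.5, so neither level is precise.

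The other genes that lead from carotenoids to abscisic acid and strigolactones ranged from 0 to 13.9 FPKM. Of the 10 genes listed, 6 were tested and all 6 were called lower than PSY, as were 91.7% of all genes tested. The dioxygenase NCED3, which makes the precursor of abscisic acid, led them with 15.1, 11.9 and 14.7 FPKM, and CCD4 exceeded it by 10.7 ± 0.628 times. MAX1 (CYP711A1 in the table), which acts after CCD8, had 7.81, 6.61 and 8.42. NCED2, NCED5 and NCED9 lay at or below 0.271 FPKM in every library and NCED6 was listed at 0. Between these lay ABA2 and AAO3, which act late in abscisic acid synthesis, at 6.73 ± 0.841 and 4.82 ± 0.238 FPKM. The median of the 10 was 2.50 FPKM, against 3.92 over nuclear protein-coding genes.

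The 5 regulators known to act on this pathway had at least 1 FPKM in every library. All 5 were called lower than PSY, as were 91.7% of all genes tested. OR (AT5G61670), a chaperone that stabilises phytoene synthase, and its relative ORL (AT5G06130) had 29.9 ± 0.656 and 24.4 ± 1.13 FPKM. The AP2-type factor RAP2.2, reported to bind the PSY promoter, was the highest of the 5 at 47.2 ± 1.79. PIF1 (PIL5 in the table), a repressor of PSY in the dark, had 15.1 ± 0.867, and HY5, a factor of light-grown seedlings, had 6.78, 4.54 and 6.29 FPKM.

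**Figure D3:**
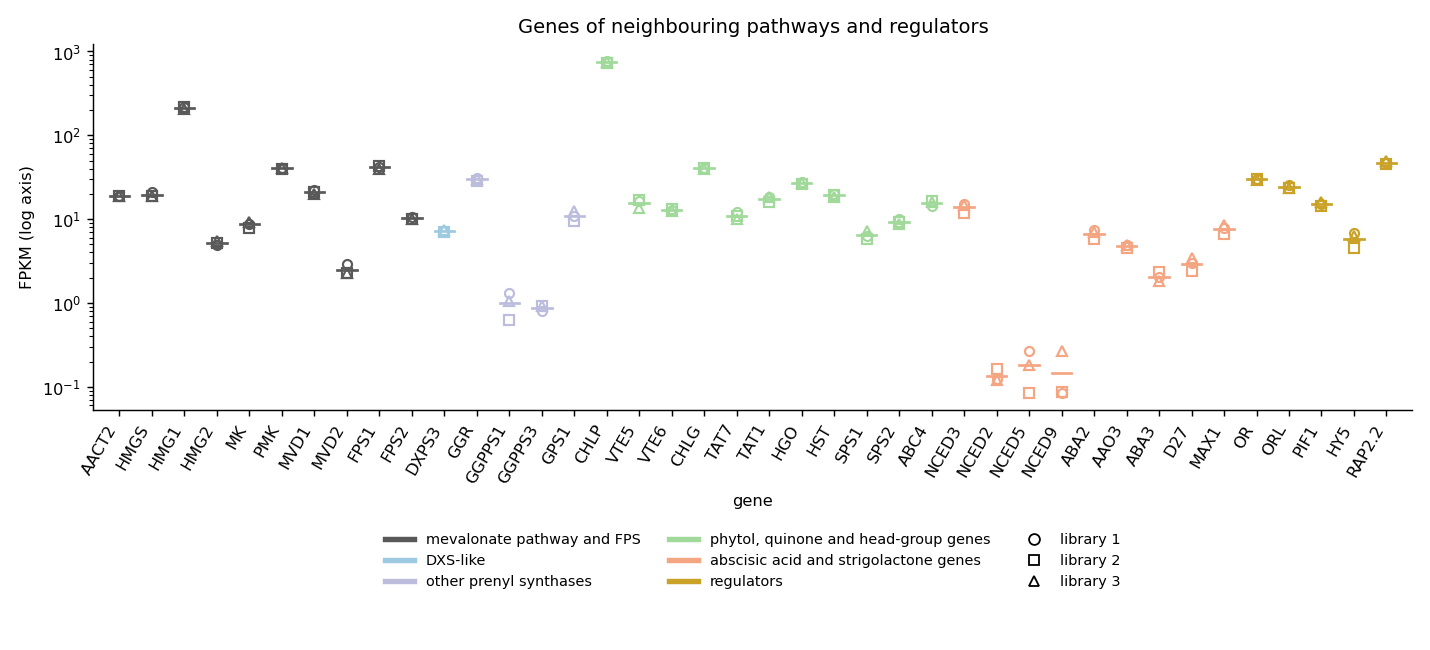
FPKM on a log axis of the genes of neighbouring pathways and of regulators, with 1 symbol per library and a line at the mean; GGPPS1 and GGPPS3 are AT1G49530 and AT3G14550, and the 3 genes listed at 0 in every library are not drawn. CHLP and HMG1 stand highest at means of 751 and 214, and the NCED genes other than NCED3 lie below 0.3.

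In tocopherol synthesis the methyltransferase VTE3 stood far above the other steps. HPPD (AT1G06570, PDS1 in the table) makes homogentisate, the head group, and had 31.8, 30.0 and 30.4 FPKM. VTE2 (AT2G18950, HPT1 in the table) joins it to the phytyl tail and had 9.84, 10.9 and 10.2. VTE3 (AT3G63410, APG1 in the table; chromosome 3, 23415589 to 23417119, minus strand, 3 exons) methylates the ring and also serves plastoquinone synthesis, and it had 177, 163 and 161 FPKM. VTE3 exceeded HPPD by 5.44 ± 0.137 times and VTE2 by 16.3 ± 1.56 times.

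The cyclase VTE1 (AT4G32770) had 7.32, 6.20 and 6.57 FPKM, the lowest level of this section. VTE4 (AT1G64970, G-TMT in the table), which turns gamma- into alpha-tocopherol, had 14.9, 14.1 and 14.1. The 5 genes kept the same order in every library, with no overlap between neighbours, and VTE3 held 72.9% ± 0.566 of their summed FPKM. All 4 VTE genes were called against HPPD, from which 97.2% of genes differed and 81.5% were lower. The log2 difference was 2.41 for VTE3 (SE 0.0369, limma adjusted p = 7.6e-10), and it was -1.04 for VTE4, -1.49 for VTE2 and -2.05 for VTE1 (SE 0.0449, 0.0577 and 0.0571).

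Genes that supply the tail or share the head group ranged from far above HPPD to below it. Of the 11 genes listed, 2 were called higher and 9 lower, close to the 81.5% of all genes tested that were lower than HPPD, so the count says nothing particular to them. CHLP (AT1G74470), the geranylgeranyl reductase that makes the phytyl tail for chlorophyll and tocopherol, had 778, 736 and 739 FPKM, or 24.4 ± 0.0788 times HPPD. The chlorophyll synthase gene CHLG (AT3G51820, G4 in the table) had 40.3 ± 0.837 FPKM and was higher than HPPD by 0.38 on the log2 scale (SE 0.0407, limma adjusted p = 2.6e-05). SPS1, a solanesyl diphosphate synthase, was lowest at 6.46 ± 0.755.

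The 250 bases before the annotated start of each gene were searched for the G-box, CACGTG, a palindrome bound by light-regulated bZIP and bHLH factors. It was present before 4 of the 33 genes (12.1%), and before 6.49% of 27443 nuclear protein-coding genes in TAIR10.1. Among those averaging 10 FPKM or more the share was 7.66%, and the difference was not tested. VTE2, MDS and BCH2 were among the 4. The PSY and DXS windows hold no such match. The motif ATCTA, read on both strands and named for RAP2.2 at PSY, was present before 48.5% of the members and 49.2% of all genes, and the PSY window holds no match to it either. The window of VTE2, which joins the head group of tocopherol to its tail, is printed as an example with the G-box in capitals, in the direction of the gene (RefSeq, TAIR10.1; chr2:8206949-8207198, plus strand). The match begins 125 bases before the start. A match describes these letters only, and binding was not measured. Sites outside the 250 bases were not searched, so a window without a match does not describe the whole promoter.
VTE2: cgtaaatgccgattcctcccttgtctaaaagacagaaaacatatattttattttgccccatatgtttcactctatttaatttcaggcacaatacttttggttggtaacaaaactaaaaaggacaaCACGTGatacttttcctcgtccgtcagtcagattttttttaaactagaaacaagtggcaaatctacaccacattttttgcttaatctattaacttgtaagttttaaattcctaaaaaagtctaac

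The members differed between libraries about as much as other genes of their level. None of the 33 genes had its highest and lowest library more than 1 apart on the log2(FPKM + 1) scale. Only 0.588% of all listed genes did, so this count says nothing particular to the members. Among genes averaging 1 FPKM or more, the median of that difference was 0.121 over 31 members and 0.164 over nuclear protein-coding genes, without matching for level. Of these 31 members, 19 varied less than the median of the 500 genes nearest in level. In the median over the 31, 46.6% of those nearest genes had a smaller SD.

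DXS varied least for its level. Its values spanned 0.0055 on the log2 scale, and 0.2% of the 500 genes nearest in level had a smaller SD. CRTISO, LCYB, CCD1 and PSY were also below 10% on this measure, at 4.2%, 4.6%, 5.8% and 7.8%. At the other end BCH2 spanned 0.73, with its lowest value in library 2 and its highest in library 3, and 98.2% of the nearest genes had a smaller SD. All 3 root markers were also lowest in library 2, and IRT1, at 2.03, 0.948 and 2.90 FPKM, and PYK10, at 1013, 953 and 1059, were highest in library 3, while PHT1;1, at 9.87, 6.91 and 8.06, was highest in library 1. Library 2 was slightly low in general. Over nuclear protein-coding genes averaging 1 FPKM or more, its median log2 difference from the mean of the other libraries was -0.032. The part of the root markers in the values of BCH2 was not tested. Z-ISO followed at 92.6%, and like BCH2 it was lowest in library 2 and highest in library 3. MCT, at 92.2%, had a single high library, library 2. In addition, 8.84% of the MCT transcript aligned at 90% identity or more with AT2G02497.

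Library 1 held the highest value for 17 of the 33 members (51.5%), where it did for 34.2% of nuclear protein-coding genes listed above 0. Library 3 did so for 5 members (15.2%) and for 38.5% of those genes. The shifts were small. The median log2 difference of library 1 from the mean of the other libraries was 0.038 over the members and 0.013 over nuclear protein-coding genes averaging 1 FPKM or more, and for library 3 it was -0.025 and 0.023. Summed FPKM was also highest in library 1 and lowest in library 3, and its part in this was not tested. The sums include 1 gene outside the nuclear protein-coding set with a mean of 892612 FPKM, so they need not reflect the scale of the members.

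**Figure D4:**
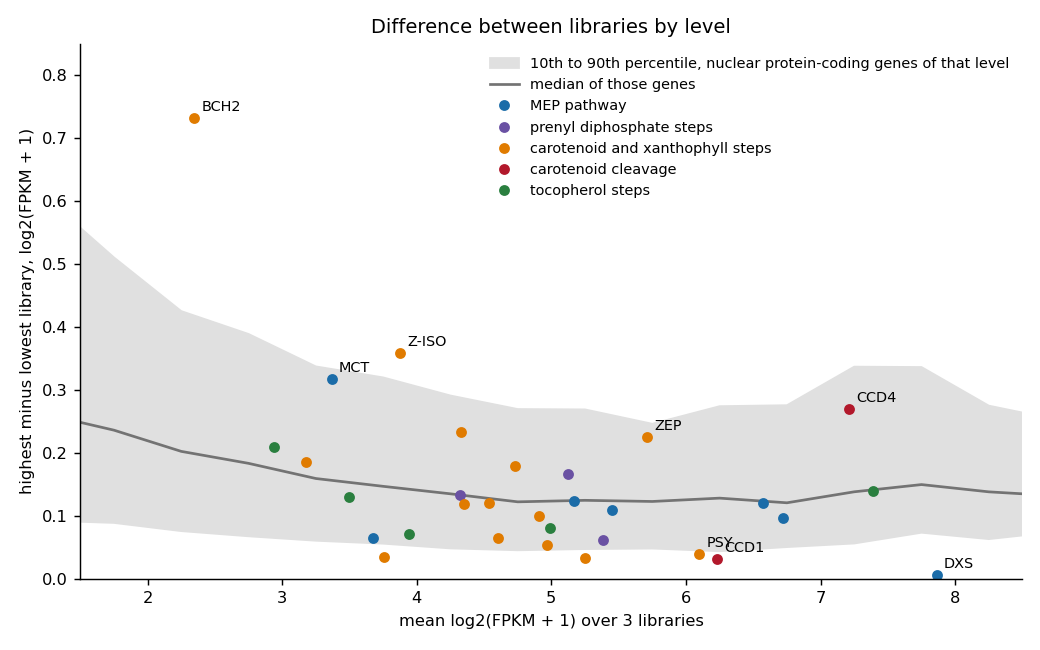
Highest minus lowest library on the log2(FPKM + 1) scale against the mean level, for the 31 members averaging 1 FPKM or more, with the median and the 10th to 90th percentile of nuclear protein-coding genes in bins of level. BCH2 at 0.73 and Z-ISO at 0.36 lie above the band, and 5 members, DXS at 0.0055 among them, lie below it.

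The files list 20 of the members with 1 transcript and 13 with several, 11 with 2 and 2 with 3. In all 13 the form numbered first carried most of the locus, from 92.4% (ZDS) to 100% on average. Of the 15 further forms, 3 were listed at 0 in every library, those of PDS3, BCH2 and ZEP. The second form of ZDS took 7.15%, 8.04% and 7.48% of the locus in libraries 1, 2 and 3, and that of DXR took 4.71%, 9.80% and 7.58%. The second form of BCH1 took 10.9% in library 2 and at most 2.53% in the others, while the summed level of BCH1 in library 2 lay between those of libraries 1 and 3. HDS had 2 minor forms, at 2.62% ± 0.395 and 2.18% ± 0.342 of the locus. The split between forms of 1 locus is an estimate from shared reads, whose error is not given in the files.

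**Figure D5:**
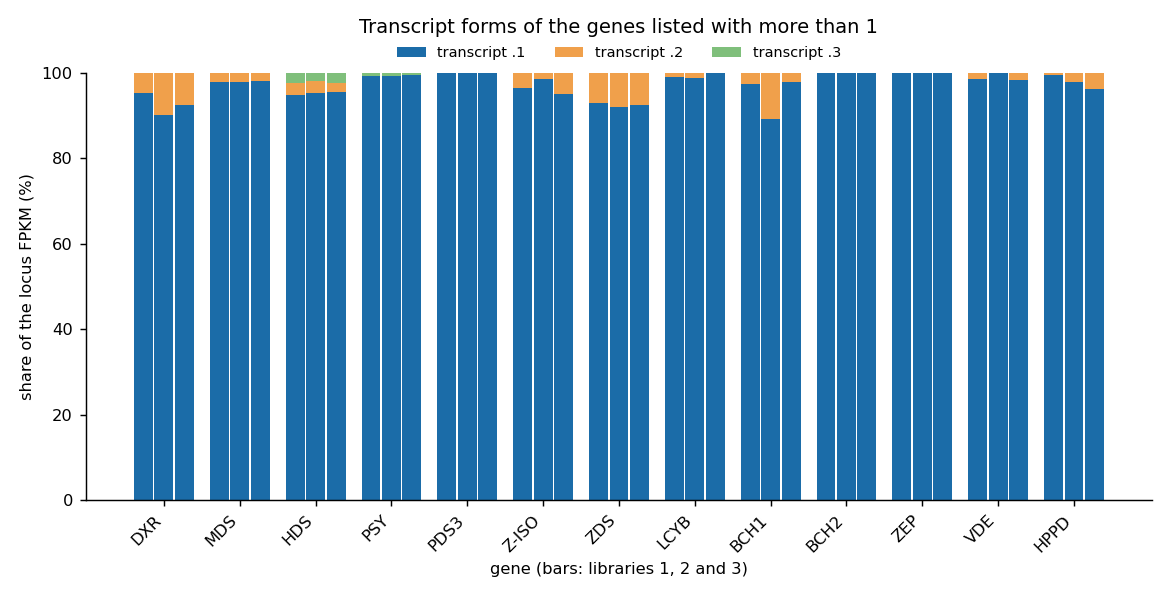
Share of the locus FPKM carried by each transcript form, in percent, for the 13 genes listed with more than 1 form, with a bar for each of libraries 1, 2 and 3. The form numbered first fills at least 89.1% of every bar, the lowest being BCH1 in library 2.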

How the data were processed

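RNA of 3 libraries from wild-type seedlings was analysed as 1 group. Each file lists 36172 transcripts with a number apiece and no unit in its header. These deposited values were read as FPKM: they are not whole, their sums differ between libraries, and Cufflinks 2.1.1 is among the tools in the submitters' processing notes. TopHat2 2.0.9 and TAIR10 also stand there, with no role. For annotation, filters, scaling and use of strand, the sources used here give nothing.

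The values of 35337 transcripts were summed per locus to 27374 genes. The other 835 have no locus and were left out. Read depth is not stated. Steps between low values fit best at about 20000000, 19300000 and 20600000 fragments. On that scale 43.2%, 40.3% and 45.5% of low values came within 0.05 of a whole number, too few to recover reads for a count test. By chance 10% would do so on a scale fixed beforehand, but this scale was chosen to make the share largest. Fragment numbers are rough, and values listed at 0 can be failed estimates.

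Ratios to reference genes were fitted with limma 3.58.1 in R 4.3.3 (intercept model, empirical Bayes with trend) on log2(FPKM + 1), for genes averaging 1 FPKM or more. This scale shrinks the differences of low genes, and all tests against 1 reference share its noise. The test was also run on simulated libraries with independent noise for each gene. That run cannot show how errors particular to a gene affect it. Alternatives were another pseudocount (0.1), no filter, the highest transcript only, the variances of both genes, no trend, scaling by the library median and leaving out each library. Named genes were all 33 members, the 2 highest and the lowest of each neighbouring list, all DXS-like genes, regulators and markers. AT1G49530, AT3G14550, ABA2, AAO3, NCED2, NCED5 and NCED9 are named beyond this rule and were chosen after their values were seen. The members, lists and comparisons were chosen with earlier results of these data known.

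Names, gene models and sequences are from RefSeq TAIR10.1, which differs in name from the authors' build, and all 33 members matched its gene table, 19 of them under another symbol. Of the upstream windows searched, the sequence of VTE2 is printed, and an item in another is not reported here. Second copies were sought in the genome with blastn 2.17.0+. In TAIR10.1, 16 members overlap a gene on the opposite strand and 2 (LCYE and LUT1) one on the same strand, where FPKM may depend on how reads were divided.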

Additional observations from a re-analysis of the deposited data

How the results depend on the processing

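In 9 comparisons with reference genes, 67 single differences were recomputed under 8 alternatives each. Of 536 values none turned direction, 533 kept their side of the threshold, and 3 lost the call (HMG1 against DXS without replicate 3 and without a trend, and GGR against GGPPS11 without replicate 3). With no filter on low values, the cleavage genes called against CCD4 went from 1 to 3 and the prenyl synthase genes called against GGPPS11 from 2 to 4, because genes under 1 FPKM were then tested. Leaving out 1 replicate gave 1 to 3 calls for the prenyl synthases, since AT1G49530 passed the filter without replicate 2. The counts of the other comparisons did not change. The number of members that differed between libraries stayed at 0, and the median percentile rank moved by less than its SD over libraries, 1.14. Ratios were taken within each library, except in the setting with the variances of both genes, which ignores that pairing. No pairing between groups was possible because the labels give 1 group. The limits are the lack of a contrast, the unknown depth, the similar stretches of IPI1 and IPI2, whose treatment in counting is not known, and the levels of CCD7 and CCD8, which rest on few fragments.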
